A study of Mus musculus with 8 samples.

Results

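The LIF and STAT3 pathway genes described here are a fixed set of 9 gene symbols, Lif, Lifr, Il6st, Jak1, Stat3, Socs3, Pim1, Gbx2 and Junb, out of 55418 genes in the count tables. They were chosen by name as the ligand, receptor, kinase, transcription factor and response genes of a single signalling route, and all 9 passed the filter on low counts in every comparison. RNA-seq was measured in mouse E14 embryonic stem cells (ESCs) after depletion of a member of the HIRA complex, which deposits the histone variant H3.3 outside DNA replication. The 4 groups were Control, Hira_KD, Ubn1_KD and Ubn2_KD, with 2 libraries each. The question was how the transcriptome of ESCs responded to loss of each complex member. Depletion was by short hairpin RNA (shRNA) from a transfected plasmid, so the target was reduced rather than deleted, and cells were selected with puromycin. The control cells are labelled wild type, and the study's methods name an shRNA against luciferase as the control. Every group was grown on gelatin without a feeder layer, in serum medium that already contained LIF protein. The labels do not say whether the 2 libraries of a group came from separate cultures, so p-values measure only the spread between these libraries. The fit also draws the variance of each gene towards that of other genes, so a p-value does not rest on that gene's spread alone.

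LIF is a cytokine that keeps mouse ESCs undifferentiated. It binds a receptor made of LIFR and gp130 (the product of Il6st), which activates the kinase JAK1. JAK1 phosphorylates STAT3, and STAT3 then enters the nucleus and binds DNA at the palindrome TTCNNNGAA. Among the genes it induces is Socs3, whose product shuts the receptor and kinase off again. Pim1 (a survival kinase), Gbx2 (a homeobox factor) and Junb (a subunit of the AP-1 transcription factor) are further response genes. RNA counts do not measure the phosphorylation of STAT3.

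A promoter sequence is shown for Lif because its RNA changed most among the members after Hira and Ubn2 depletion, and a short site for Socs3 because it was the member with the STAT palindrome near its start. Both were taken from RefSeq promoter windows of GRCm38.p6, which run from 250 bases before to 50 bases after a start, and the 9 members had 11 such windows. Lif lies on the plus strand at chr11:4257557-4272514, and the stretch shown is the 239 bases directly upstream of the annotated gene, chr11:4257318-4257556. Its capitals mark the AP-1 motif TGANTCA, the kind of site that a JUNB-containing dimer can bind, with its first base at -228 from the RefSeq start. Socs3 lies on the minus strand at chr11:117966079-117970047. The 29 bases shown, chr11:117969502-117969530 read on the minus strand, fall in an intron of 1 GENCODE transcript of the gene and upstream of the other two. Capitals there mark the STAT motif, with its first base at -154.
Lif promoter: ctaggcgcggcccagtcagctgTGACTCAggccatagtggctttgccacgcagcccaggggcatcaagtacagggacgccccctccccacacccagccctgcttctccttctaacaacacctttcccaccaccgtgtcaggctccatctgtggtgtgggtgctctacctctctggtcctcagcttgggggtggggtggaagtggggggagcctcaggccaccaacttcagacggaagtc
Socs3 site: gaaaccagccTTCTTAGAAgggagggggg
Searched on both strands, TTCNNNGAA was found in 8.3% of all 32851 windows and, among the members, in Socs3 alone. TGANTCA was found in 7.8% of all windows and, among the members, in Lif alone. The motifs do not overlap each other in the sequences shown. Neither match is evidence of binding, and the absence of these letters from the other members' windows says nothing about the factors.

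Total counts per library lay between 19710040 and 32706053. The targeted gene fell in its own depletion, with log2 fold changes of -3.22 for Hira, -1.03 for Ubn1 and -0.90 for Ubn2, so Hira was reduced much further than the other two. The summed level of 9 ESC markers was 6791 to 7016 CPM (counts scaled to library size) in the controls and 5694 to 6113 CPM in the depleted libraries, and none of the 9 was at 0 in any group. Fgf4 was called lower after Hira depletion, and Fgf4, Tdgf1 and Dppa5a after Ubn2 depletion. None of the 9 was called higher. By adjusted p alone Nanog was higher after Hira depletion (log2 fold change 0.31, edgeR adjusted p = 0.00569), where Pou5f1, Tdgf1 and Dppa5a were lower. After Ubn2 depletion Esrrb was higher (0.27, edgeR adjusted p = 0.00392) and Utf1 lower (-0.28, adjusted p = 0.00495) by that criterion. Heart muscle markers summed to 12.3 CPM in each control library and to 122 to 199 CPM after Ubn2 depletion, where 4 of 5 were called higher and 1 lower. Neural markers summed to 109 to 115 CPM in the controls, 207 to 221 CPM after Hira, 152 to 172 CPM after Ubn1 and 119 to 125 CPM after Ubn2 depletion. Primitive endoderm markers were at 14.8 to 17.1 CPM in the controls, 9.17 to 10.9 CPM after Ubn1 depletion (2 called lower) and 14.5 to 16.9 CPM after the other two. Of these, Sox17 was called higher after Hira depletion, at 1.66 and 1.38 CPM against 0.633 and 0.692 CPM in the controls. Trophoblast and mesoderm markers summed to at most 37.5 and 2.73 CPM in the controls and at most 49.2 and 11.1 CPM in the depleted libraries. The trophoblast genes Cdx2 and Hand1 were called higher after Hira depletion and Gata3 after Ubn2 depletion, all at or below 1.42 CPM in every library. The mesoderm gene Kdr was called higher after both, and T lower after Ubn2 depletion. No gene of these lists was called after Ubn1 depletion. The 8 fibroblast markers summed to 39.4 to 43.1 CPM in the controls and 31.6 to 35.6 CPM after Ubn2 depletion, where 3 were called higher and 2 (Thy1 and Pdgfrb) lower. Col3a1, Lum, Dcn and Postn were at 0 in the controls, and none was at 0 after Ubn2 depletion. In bulk RNA, a change in the share of a cell type and a change of RNA per cell cannot be told apart.

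A gene was called when its adjusted p was under 0.05 and its fold change over 1.5 by the quasi-likelihood test of edgeR, with p-values adjusted over all genes tested by the Benjamini-Hochberg method. After Hira depletion 1 of 9 members was called, Lif, which was higher, against 16.2% of all genes tested. After Ubn1 depletion 1 of 9 was called, Socs3, which was lower, against 3.09% of all genes. After Ubn2 depletion 3 of 9 were called, Lif and Junb higher and Socs3 lower, against 18.3% of all genes. The share of members called was thus 11.1%, 11.1% and 33.3%, and with 9 genes a single member moves it by 11.1 percentage points. By adjusted p alone, 2 members (Lif and Jak1) passed after Hira depletion, where 34.9% of all genes did, and 1 (Socs3) after Ubn1 depletion, where 7.76% did. The same criterion passed 7 members after Ubn2 depletion, 4 higher (Lif, Stat3, Gbx2, Junb) and 3 lower (Lifr, Socs3, Pim1), where 39.1% of all genes passed. The median log2 fold change of the members was -0.05, 0.00 and -0.11 after depletion of Hira, Ubn1 and Ubn2, beside 0.011, -0.002 and -0.004 for all genes. The 3 comparisons share their control libraries.

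**Figure D1:**
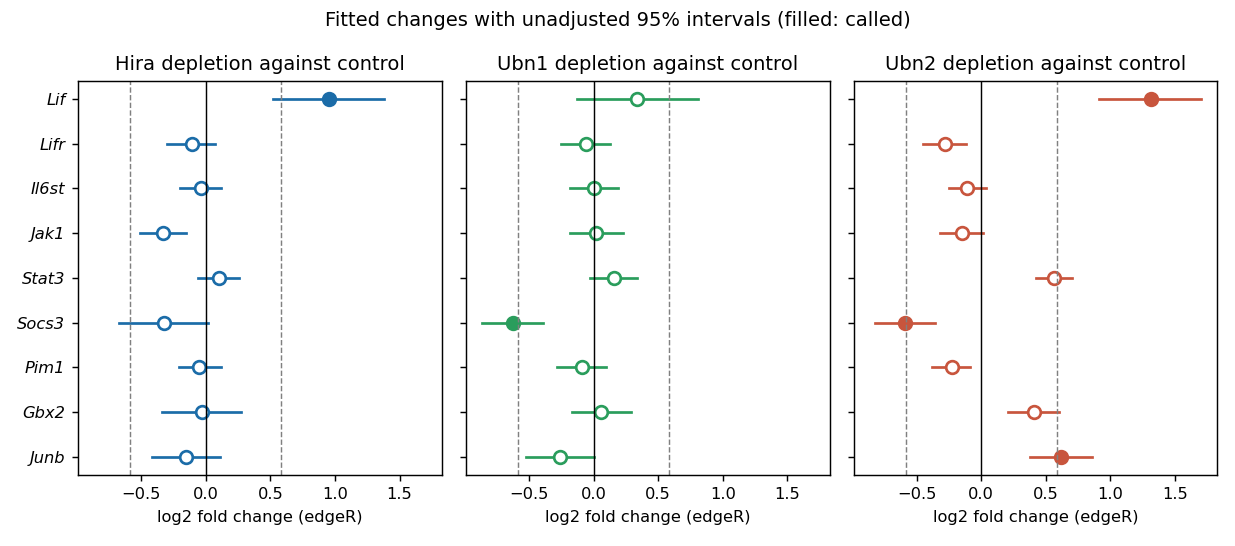
Fitted log2 fold change (horizontal axis) of the 9 members in each depletion against control, 2 libraries a group, with unadjusted 95% intervals. Filled points are called and dashed lines mark the 1.5-fold threshold. Lif lies to the right of that threshold after Hira (0.95) and Ubn2 depletion (1.31), and Socs3 sits close to it on the left after Ubn1 (-0.62) and Ubn2 depletion (-0.59).

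Levels between genes were compared per kilobase of exon. In the controls Socs3 was the most abundant member at 98.8 ± 26.9 CPM per kb (SD, n = 2), followed by Pim1 at 36.5 ± 1.58. Gbx2 at 20.7 ± 2.74 and Junb at 18.4 ± 4.73 CPM per kb did not differ beyond their spread. Stat3 came next at 13.5 ± 0.658 CPM per kb. The receptor chains Lifr at 9.49 ± 0.591 and Il6st at 9.24 ± 0.164, and the kinase Jak1 at 8.94 ± 0.378 CPM per kb, followed within each other's spread. Lif itself was the lowest at 0.852 ± 0.113 CPM per kb, and its level lay between 0.772 and 2.13 CPM per kb in the 8 libraries.

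**Figure D2:**
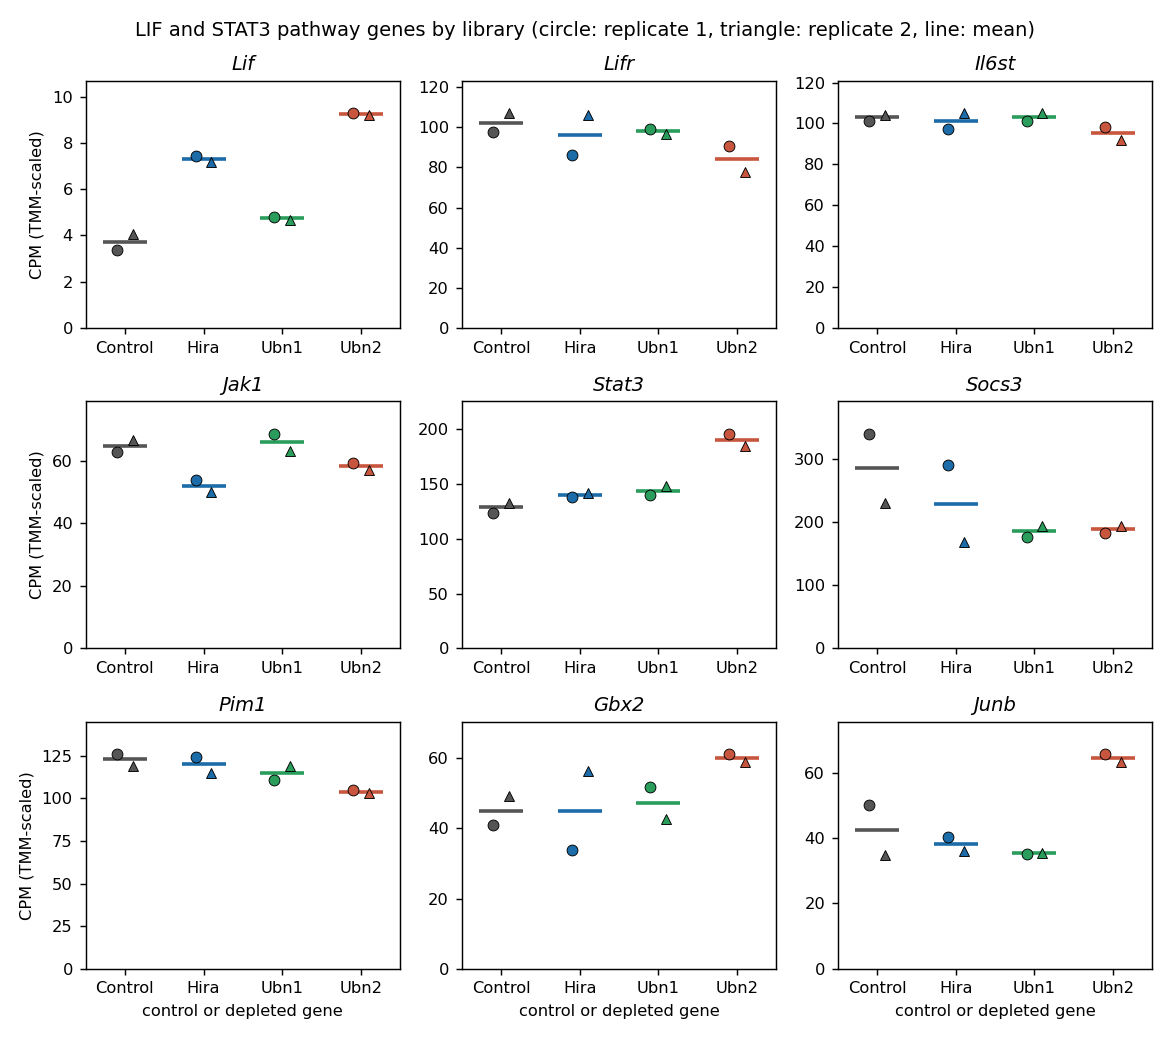
CPM on TMM-scaled library sizes (vertical axis, starting at 0) of each member in the 8 libraries, with replicate 1 as a circle, replicate 2 as a triangle and the group mean as a line. Lif, Stat3, Gbx2 and Junb have both Ubn2-depleted libraries above every other library, while the 2 control libraries of Socs3 stand apart at 341 and 231 CPM. The share of all genes that separate in this way was not counted.

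Lif, the ligand gene, rose after depletion of Hira and of Ubn2. Its level was 3.36 and 4.06 CPM in the controls, 7.45 and 7.16 CPM after Hira depletion, 4.79 and 4.69 CPM after Ubn1 depletion, and 9.29 and 9.23 CPM after Ubn2 depletion. The libraries of the 4 groups did not overlap in any pair of groups, and the order from low to high was control, Ubn1, Hira and Ubn2. These values rest on few reads, with 69 and 129 counts in the controls and 105 to 246 in the depleted libraries.

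Relative to control, Lif was 1.93-fold higher after Hira depletion (95% interval 1.43 to 2.61, log2 fold change 0.95 ± 0.21 SE, edgeR adjusted p = 0.00122). After Ubn2 depletion it was 2.47-fold higher (1.88 to 3.26, log2 fold change 1.31 ± 0.19 SE, edgeR adjusted p = 1.57e-05). Both calls held in every alternative tried, including with each library left out. The Ubn1 value, a log2 fold change of 0.34 ± 0.23, did not pass (edgeR adjusted p = 0.415), and its interval ran from -0.13 to 0.81. Set directly against Ubn1 depletion, where 8.7% of all genes were called, Ubn2 depletion left Lif 1.95-fold higher (edgeR adjusted p = 0.00186). The direct comparison of Hira with Ubn1 depletion, in which 12.7% of all genes were called, gave a log2 fold change of 0.63 (edgeR adjusted p = 0.0268). That call was lost without any 1 of the 4 libraries, where the value was 0.60 to 0.66, and by DESeq2 (0.61, adjusted p = 0.107). Hira and Ubn2 depletion differed in Lif by -0.33 on the log2 scale, with an interval of -0.69 to 0.02 (edgeR adjusted p = 0.136). The summed heart muscle markers were higher beside Lif after Ubn2 depletion, and were at 8.6 to 9.06 CPM after Hira depletion. The summed mesoderm markers were at 2.63 to 2.73 CPM in the controls and 2.73 to 3.19 CPM after Ubn1 depletion. After Hira and Ubn2 depletion, where Lif was called, they were at 5.69 to 6.93 and 7.54 to 11.1 CPM. Of these, Kdr was called higher after Hira and Ubn2 depletion (log2 fold changes 1.62 and 2.56), and T lower after Ubn2 depletion. The summed neural markers were higher beside Lif after Hira depletion. They were also higher, at 152 to 172 CPM, after Ubn1 depletion, where Lif was not called. After Ubn2 depletion, where Lif rose most, they were at 119 to 125 CPM, against 109 to 115 CPM in the controls. Tubb3 made up most of this sum, with log2 fold changes of 0.86, 0.62 and -0.12 after Hira, Ubn1 and Ubn2 depletion. The first and second of these were called. Nes gave 1.39, 0.11 and 0.90, and was called after Hira and Ubn2 depletion, as Lif was. Pax6 was called higher after Ubn2 depletion alone (0.65), and Sox1 in no depletion. The part of these cell type markers in the Lif results was not tested.

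The 2 genes whose log2 CPM followed that of Lif most closely over the 8 libraries, of 10355 with a mean of at least 10 CPM, were Cd68 (Pearson r = 0.994), a lysosomal membrane protein best known from macrophages, and Ipmk (r = 0.991), an inositol phosphate kinase. Cd68 was at 16.0 and 17.8 CPM in the controls, 32.4 and 34.5 after Hira, 21.8 and 21.2 after Ubn1, and 46.3 and 47.6 after Ubn2 depletion. Its libraries therefore stood in the same order of groups as those of Lif. Ipmk moved less, with log2 fold changes of 0.23, 0.08 and 0.38 after Hira, Ubn1 and Ubn2 depletion, and was not called. The correlation is a description over libraries that fall into 4 groups.

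The receptor genes differed little between groups. Lifr was at 97.8 and 107 CPM in the controls, 86.1 and 106 after Hira, 99.3 and 96.7 after Ubn1, and 90.6 and 77.9 CPM after Ubn2 depletion. Both Ubn2-depleted libraries lay below both controls, a log2 fold change of -0.28 ± 0.08 SE (edgeR adjusted p = 0.00773) that is under the 1.5-fold threshold. Il6st, which encodes the signalling chain gp130 shared by all cytokines of the IL-6 family, stayed between 92.1 and 105 CPM in the 8 libraries. Its log2 fold changes were -0.04, 0.00 and -0.11 after Hira, Ubn1 and Ubn2 depletion, with unadjusted intervals that together reached from -0.25 to 0.19 and no call.

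Jak1, the kinase bound to the receptor chains, was lower after Hira depletion. It was at 62.7 and 66.5 CPM in the controls, 53.7 and 50.1 after Hira, 68.6 and 63.0 after Ubn1, and 59.2 and 57.1 CPM after Ubn2 depletion. Both Hira-depleted libraries were below all other libraries. The log2 fold change was -0.33 ± 0.09 SE after Hira depletion (edgeR adjusted p = 0.00479), short of the fold threshold, and -0.33 directly against Ubn1 depletion (adjusted p = 0.0187). The other values were 0.02 after Ubn1 and -0.15 after Ubn2 depletion (adjusted p = 0.924 and 0.138).

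Stat3, the transcription factor of the route, was higher after Ubn2 depletion. Its level was 124 and 133 CPM in the controls, 138 and 142 after Hira, 140 and 148 after Ubn1, and 196 and 185 CPM after Ubn2 depletion. The 2 Ubn2-depleted libraries exceeded all others, and the change against control was 1.48-fold (95% interval 1.34 to 1.63, edgeR adjusted p = 1.65e-06). It was not called because the threshold is 1.5-fold, a limit it passed without Control replicate 2 (log2 fold change 0.61) or without Ubn2_KD replicate 2 (0.60). Hira and Ubn1 depletion gave log2 fold changes of 0.10 and 0.16 (adjusted p = 0.321 and 0.332). The difference between depletions was itself tested: Stat3 was lower after Hira than after Ubn2 depletion by a log2 fold change of -0.44 (edgeR adjusted p = 0.000325), and higher after Ubn2 than after Ubn1 depletion by 0.40 (adjusted p = 0.00422). Stat3 shares 72 exon bases with Stat5a on the opposite strand, which was at 3.21 to 5.15 CPM.

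Socs3, the feedback inhibitor, was called lower after Ubn1 and Ubn2 depletion, but its replicates did not agree. The controls were at 341 and 231 CPM and the Hira-depleted libraries at 291 and 169 CPM. The Ubn1-depleted libraries were at 177 and 195 CPM and the Ubn2-depleted ones at 184 and 195 CPM. All 4 of the latter lay below both controls, while the range of the Hira-depleted libraries overlapped that of the controls.

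Against control, the log2 fold change of Socs3 was -0.62 ± 0.12 SE after Ubn1 depletion (edgeR adjusted p = 0.000643) and -0.59 ± 0.11 after Ubn2 depletion (adjusted p = 0.000246). The ratio of replicate 1 to replicate 2 was 1.48 in the controls (95% counting interval 1.43 to 1.53) and 1.72 after Hira depletion (1.66 to 1.79), far beyond counting error. In the other groups that ratio was 0.905 and 0.94. Without Control replicate 1 the values shrank to -0.31 after Ubn1 (adjusted p = 0.288) and -0.29 after Ubn2 depletion (adjusted p = 0.00563), so neither was called. The calls were also lost without Ubn1_KD replicate 1 (-0.56) and without Ubn2_KD replicate 1 (-0.54), where the fold was under 1.5. DESeq2 gave log2 fold changes of the same size, -0.63 and -0.59, with larger SEs of 0.29 and 0.28. It made neither call (DESeq2 adjusted p = 0.192 and 0.103). After Hira depletion the value of -0.32 was not called (adjusted p = 0.14), and it ran from -0.77 without Hira_KD replicate 1 to 0.01 without Hira_KD replicate 2.

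Among the genes looked at, others also had unequal controls. How common such gaps were over all genes was not counted. Ier3, an immediate early gene, was at 25.4 and 12.7 CPM in the controls, 16.1 and 8.68 after Hira, 6.61 and 8.06 after Ubn1, and 6.85 and 6.47 CPM after Ubn2 depletion. It was called lower after Ubn1 (log2 fold change -1.36, edgeR adjusted p = 4.99e-05) and Ubn2 depletion (-1.49, adjusted p = 2.2e-05), although DESeq2 did not call the former (-1.38, adjusted p = 0.0825). Without Control replicate 1 both calls held at smaller values, -0.79 (adjusted p = 0.0214) and -0.94 (adjusted p = 3.76e-05). Zfp36, which encodes an mRNA decay factor and was picked after its values were seen, was at 21.9 and 12.1 CPM in the controls and 24.0 and 13.1 CPM after Hira depletion. In both genes, as in Socs3, replicate 1 was the higher library of the control and Hira-depleted groups. Not all response genes did this: Egr1, another immediate early gene, was at 27.6 and 40.9 CPM in the controls and 22.2 and 38.2 CPM after Hira depletion, and Myc at 36.2 and 47.7 and at 17.8 and 48.3 CPM, with replicate 2 the higher. Both were also picked after their values were seen. The genes most like Socs3 over the 8 libraries were Igbp1 (Pearson r = 0.969), a regulatory protein of phosphatases, and Bhlhe40 (r = 0.962), a repressor induced by many stimuli. Igbp1 moved little, between 63.7 and 79.3 CPM, and was not called in any depletion. Bhlhe40 was at 64.5 and 37.2 CPM in the controls and 43.5 and 22.9 CPM after Hira depletion, and between 19.2 and 27.4 CPM in the other libraries.

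**Figure D3:**
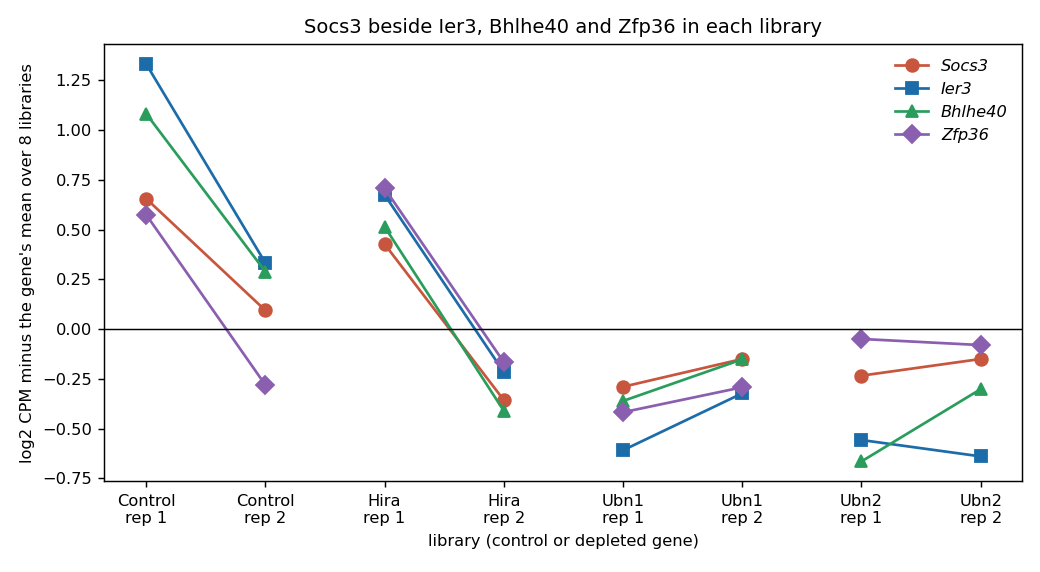
Log2 CPM of Socs3, Ier3, Bhlhe40 and Zfp36 in each library (Bhlhe40 and Zfp36 were chosen for a like pattern), minus the gene's own mean over the 8 libraries; lines join the 2 replicates of a group. Replicate 1 is above replicate 2 for all 4 genes in the control and Hira-depleted groups, with Socs3 at 341 against 231 CPM in the controls.

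Pim1, a kinase gene induced by STAT3, was at 126 and 119 CPM in the controls, 124 and 115 after Hira, 111 and 119 after Ubn1, and 105 and 103 CPM after Ubn2 depletion. The 2 Ubn2-depleted libraries were the lowest, with a log2 fold change of -0.23 ± 0.07 SE (edgeR adjusted p = 0.00936) that stayed under the fold threshold. Gm26885, an antisense gene that shares 488 exon bases with Pim1, gave -0.26 in the same comparison (adjusted p = 0.0418). The strand setting of the counting is not stated in the sources used here, so reads from the overlap cannot be told apart.

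Gbx2 was higher after Ubn2 depletion, with controls at 40.9 and 49.3 CPM and Ubn2-depleted libraries at 61.2 and 58.9 CPM. The Hira-depleted libraries were at 34.0 and 56.3 CPM, a replicate ratio of 0.603 (counting interval 0.555 to 0.655), and the Ubn1-depleted ones at 51.8 and 42.7 CPM. The log2 fold change of 0.41 ± 0.09 SE after Ubn2 depletion passed by adjusted p (edgeR, 0.00154) but not by fold. Directly against Ubn1 depletion, Gbx2 was higher after Ubn2 depletion by 0.35 on the log2 scale (adjusted p = 0.0315). D130058E05Rik, which shares 946 exon bases with Gbx2 on the other strand, gave 0.32 after Ubn2 depletion (adjusted p = 0.0309), with the same limit on strand.

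Junb rose after Ubn2 depletion. It was at 50.1 and 34.7 CPM in the controls, 40.3 and 36.1 after Hira, 35.1 and 35.5 after Ubn1, and 65.7 and 63.4 CPM after Ubn2 depletion. The Ubn2-depleted libraries were above all 6 others, and the controls were as unequal as in Socs3, with a ratio of 1.44 (counting interval 1.32 to 1.57).

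Against control the change of Junb was 1.54-fold (95% interval 1.3 to 1.82, edgeR adjusted p = 0.00024). It fell under the fold threshold without Control replicate 2 (log2 fold change 0.36, adjusted p = 0.00296) and was not called by DESeq2, which gave a value of 0.61 (adjusted p = 0.0644). The direct comparisons, which leave the controls out, were larger. Junb was 1.83-fold higher after Ubn2 than after Ubn1 depletion (95% interval 1.59 to 2.1, edgeR adjusted p = 1.02e-05), and it was the only member called between Hira and Ubn2 depletion, where 17.6% of all genes were called (log2 fold change -0.74, adjusted p = 2.06e-05). Both direct calls held in every alternative tried. Prdx2, which shares 173 exon bases with Junb on the opposite strand, was at 199 to 285 CPM and gave a value of the opposite sign after Ubn2 depletion (log2 fold change -0.21, adjusted p = 0.0208). The limit on strand applies here too, so reads from this overlap cannot be told apart. The genes most like Junb over the 8 libraries were Gm44616 (Pearson r = 0.959) and Ccdc25 (r = 0.956). Neither was called, with log2 fold changes of 0.26 and 0.51 after Ubn2 depletion.

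A wider list of 59 other genes of the pathway was described by counts. After Hira depletion 7 of 57 tested genes were called (12.3%), 6 higher and 1 lower, with a median log2 fold change of 0.05. After Ubn1 depletion 3 of 55 were called (5.45%), 1 higher and 2 lower, with a median of 0.01. After Ubn2 depletion 12 of 55 were called (21.8%), 10 higher and 2 lower, with a median of 0.06. The shares of all genes called were 16.2%, 3.09% and 18.3%. None of the 3 adaptor genes was called in any depletion, and of 9 other JAK and STAT genes only Stat4 was.

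Of the 4 receptor genes in the wider list, Il6ra and Cntfr were called higher after both Hira and Ubn2 depletion. Osmr, at 3 and 9 counts in the controls and 36 and 10 after Hira depletion, passed the filter on low counts in that comparison with control alone, so its call there says little. Il11ra1 was not called, with a log2 fold change of -0.43 after both Hira and Ubn2 depletion (adjusted p = 0.111 and 0.0873). Il6ra, the ligand-binding chain for interleukin 6, was at 4.72 and 4.06 CPM in the controls, 9.56 and 14.1 after Hira, 9.76 and 10.4 after Ubn1, and 11.6 and 8.16 CPM after Ubn2 depletion. All 6 depleted libraries were above both controls. The fold changes were 2.66 (edgeR adjusted p = 1.98e-05), 2.3 (adjusted p = 9.06e-05) and 2.27 (adjusted p = 8.02e-05). Il6ra was the only gene of the 68 in both lists that was called in the same direction in all 3 depletions, as were 215 of the 17811 genes tested in all 3. Those calls share the 2 control libraries, and each held in every alternative tried. Cntfr, the binding chain for ciliary neurotrophic factor, was at 14.8 and 17.7 CPM in the controls, 25.4 and 29.5 CPM after Hira depletion, and 25.8 and 24.4 CPM after Ubn2 depletion, with 15.9 and 17.3 CPM after Ubn1 depletion. Its log2 fold changes were 0.72 after Hira (edgeR adjusted p = 0.000145), 0.62 after Ubn2 (adjusted p = 0.000415) and 0.02 after Ubn1 depletion (adjusted p = 0.954). The Ubn2 call was lost without Control replicate 1 (0.50) or Ubn2_KD replicate 1 (0.58).

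**Figure D4:**
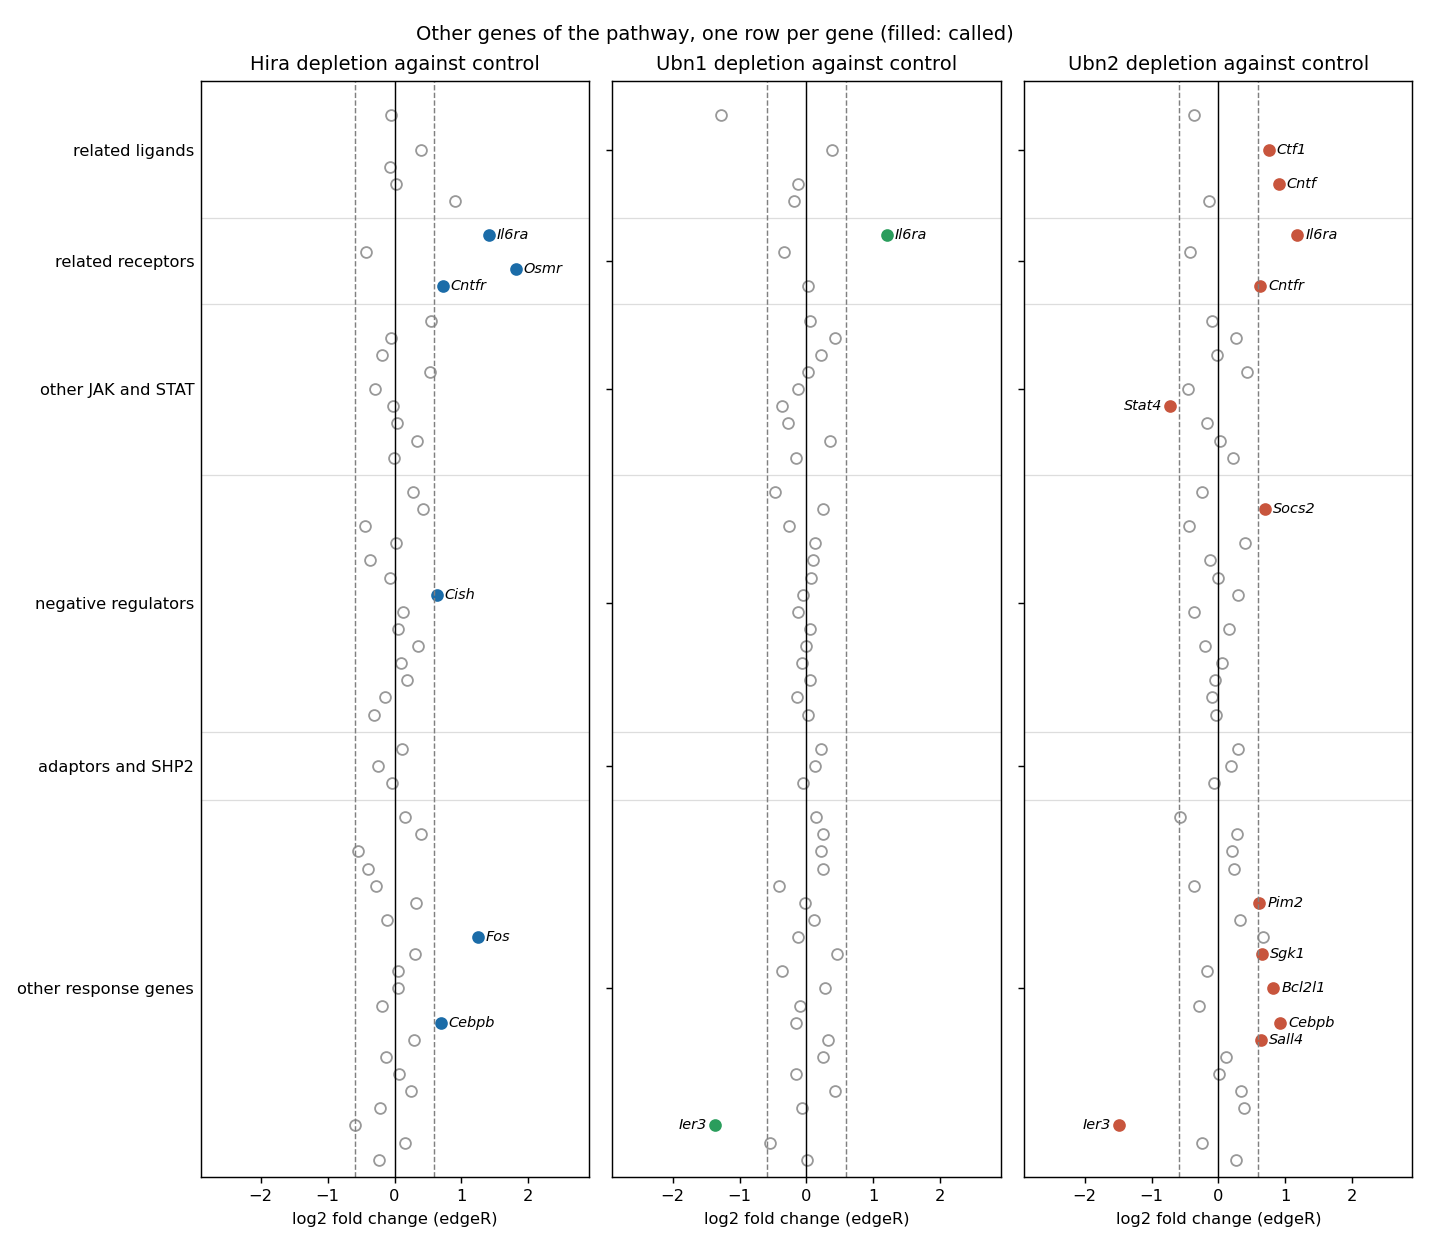
Fitted log2 fold change (horizontal axis) of the wider list in each depletion against control, 1 row per gene, grouped by role, with called genes filled and named and dashed lines at 1.5-fold; untested genes and 1 gene not reported here are left out. Il6ra is named in all 3 panels, at 1.41, 1.20 and 1.18, while most genes lie between the dashed lines.

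Of the 21 other response genes, 2 were called higher after Hira depletion, 1 lower after Ubn1 depletion, and 5 higher and 1 lower after Ubn2 depletion. These shares of 9.52%, 4.76% and 28.6% stand beside 16.2%, 3.09% and 18.3% of all genes tested. Fos, another AP-1 subunit, was at 3.07 and 2.42 CPM in the controls and 6.69 and 6.26 CPM after Hira depletion (log2 fold change 1.24, edgeR adjusted p = 0.000276). Bcl2l1, which encodes the survival protein BCL-XL, was at 32.9 and 34.1 CPM in the controls and 56.9 and 61.4 CPM after Ubn2 depletion, a 1.76-fold rise (edgeR adjusted p = 3.8e-07). Sgk1, a serum-inducible kinase, rose from 131 and 155 to 225 and 226 CPM, and Sall4, a zinc finger factor of ESCs, from 182 and 198 to 310 and 278 CPM, with log2 fold changes of 0.65 and 0.63 (edgeR adjusted p = 7.97e-07 and 9.97e-07). Both fell under 1.5-fold without Control replicate 1, at 0.54 and 0.57, and Sall4 also without Ubn2_KD replicate 1, at 0.55. Socs2, a relative of Socs3 picked after its value was seen, rose after Ubn2 depletion from 37.8 and 41.7 to 64.7 and 64.4 CPM (log2 fold change 0.69, edgeR adjusted p = 1.97e-06). The fall of Socs3 to which this is opposite was not called by DESeq2. By adjusted p alone Socs5 was also higher (0.39, edgeR adjusted p = 0.0453) and Socs4 lower (-0.44, adjusted p = 0.00605) after Ubn2 depletion. Socs1, Socs6 and Socs7 did not pass. Stat4 was lower after Ubn2 depletion at 4.74 and 6.27 CPM against 9.49 and 8.61 CPM (log2 fold change -0.72, edgeR adjusted p = 0.00422), a call lost without Ubn2_KD replicate 1. It shares 1033 exon bases with Gm28177 on its own strand.

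Klf4 and Tfcp2l1, transcription factors through which STAT3 is known to act in ESCs, were looked at after their values were seen. Klf4 was at 189 and 220 CPM in the controls and 130 and 145 CPM after Ubn2 depletion, a log2 fold change of -0.58 (edgeR adjusted p = 5.84e-06), just under the threshold, which it passed with no filter on low counts (-0.60), without Control replicate 1 (-0.69) and without Ubn2_KD replicate 2 (-0.65). Its levels after Hira and Ubn1 depletion were 217 to 242 CPM, with no call. Tfcp2l1 was lower after Hira depletion, at 245 and 265 CPM against 350 and 385 CPM (log2 fold change -0.55, adjusted p = 1.4e-05), and was at 403 to 450 CPM in the other depleted libraries. It passed 1.5-fold without Control replicate 1 (-0.62) or Hira_KD replicate 2 (-0.61). After Ubn2 depletion Tfcp2l1 gave a log2 fold change of 0.21 (edgeR adjusted p = 0.032). Klf5, from the same list of response genes, went up under the fold threshold, by 0.39 after Hira (edgeR adjusted p = 0.00101) and 0.28 after Ubn2 depletion (adjusted p = 0.00328). Its value after Ubn1 depletion was 0.25 (adjusted p = 0.0843).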

How the data were processed

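The authors deposited raw counts of reads per gene, unnormalized, in 3 tables of 55418 genes. The control counts are the same in all 3 tables (0 differing values) and were used once. Per the submitters' processing notes and the study's methods, reads were trimmed with Trim Galore, aligned to GRCm38 with STAR and counted with featureCounts. Versions, the strand setting and the handling of multi-mapping reads are not given in the sources used here.

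Each depletion was compared with control, and the depletions with each other, with edgeR 4.0.16 in R 4.3.3, using only the 4 libraries compared (filterByExpr, TMM, quasi-likelihood tests, Benjamini-Hochberg adjustment over all genes tested). Calls needed both a fold change over 1.5 and an adjusted p below 0.05. The SE was obtained from the log2 fold change and the square root of F, and 95% intervals are not adjusted. CPM are on TMM-scaled sizes over all 8 libraries, with TMM factors of 0.97 to 1.0597 and totals of 19710040 to 32706053. The counting interval of a replicate ratio covers counting error only, and these reads carry no molecular identifiers. With 2 libraries against 2, an exact two-sided permutation test of a single gene cannot go below 0.333, so only the fit across all genes was used.

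The members and all lists were chosen with earlier results of these data known. The genes named were the 9 members, up to 3 called genes of the wider list per direction and comparison with the smallest adjusted p (1 of them, counted in the list, is not reported here), the targeted genes, and the 2 genes most like each called member. Zfp36, Egr1, Myc, Osmr, Il11ra1, Klf4, Klf5, Tfcp2l1, Socs2, Socs4, Socs5, and Il6ra and Cntfr after Ubn2 depletion were added after their values were seen. Positions, exon lengths and overlaps are from GENCODE M21 (GRCm38), matched by symbol for all 9 members. The results were recomputed with the Wald test of DESeq2 1.42.0, with that tool's size factors, without the low-count filter, with a minimum of 10 counts per library, with 1 fit to all 8 libraries, with the replicate number as a block and without each library in turn. Calling by adjusted p alone was added after seeing the data. Summaries and figures were made in Python 3.11.15 (matplotlib 3.10.9, scipy 1.17.1, pandas 2.3.3, numpy 2.4.6).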

Additional observations from a re-analysis of the deposited data

How the results depend on the processing

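Of 609 values under the alternatives, covering 61 named genes and comparisons, 549 kept their direction and their side of the threshold. DESeq2 called 0 members after Ubn1 depletion, 1 (Lif) after Ubn2 depletion and 0 between Hira and Ubn1 depletion, where edgeR called 1, 3 and 1. By adjusted p alone 2 members passed after Hira and 7 after Ubn2 depletion. With each library left out, the number called was 1 to 2 after Hira, 0 to 1 after Ubn1, 2 to 4 after Ubn2 (Stat3 joined the calls without Control replicate 2 or Ubn2_KD replicate 2), 1 to 3 between Hira and Ubn2, and 0 to 1 between Hira and Ubn1 depletion. The cause was not tested. Some log2 fold changes that were not called changed sign when a library was left out. After Hira depletion these were Lifr (-0.27 to 0.03), Il6st (-0.10 to 0.01), Socs3 (-0.77 to 0.01), Pim1 (-0.10 to 0.00), Gbx2 (-0.43 to 0.30) and Junb (-0.41 to 0.12). After Ubn1 depletion they were Il6st (-0.02 to 0.02, and 0.00 by DESeq2, with its size factors and with no filter), Jak1 (-0.05 to 0.08), Gbx2 (-0.10 to 0.20) and Junb (-0.51 to 0.03). In the direct comparisons Socs3 ran from -0.16 to 0.63 (Hira against Ubn2), -0.13 to 0.65 (Hira against Ubn1) and -0.04 to 0.10 (Ubn2 against Ubn1).

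Groups share replicate numbers in their labels. Across 19264 genes, deviations from the group mean correlated at -0.0985 to 0.0978 between libraries of equal number, over 6 pairs of groups. The highest value, 0.0978, was that of Control and Hira_KD. Correlations over all genes cannot show whether a batch was shared in few genes or some groups, which was not tested. The main fit did not pair the libraries. With the replicate block, Socs3 after Ubn2 depletion came to -0.57 (adjusted p = 2.34e-11), under the fold threshold. A library left out leaves a lone sample in its group, which is then assumed to vary like the other group. Depth limits the genes with few reads, among them Lif (69 to 246 counts) and Fos (42 to 221 counts).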
